A study of Mus musculus with 4 samples.

Results

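Prkch and Hif1a are neighbouring genes on mouse chromosome 12, and the H3K27ac peaks in and between them were compared between 1 library of an Hdac3-deleted chondrocyte culture and 1 library of a control culture. Every deposited peak was taken that touched the stretch from 50 kb below the lower end of Prkch to 50 kb above the upper end of Hif1a (mm10 chromosome 12, 73534796 to 73997554, 462759 bp). The stretch held 76 of the 13130 peaks of the Hdac3-deleted culture and 30 of the 12873 peaks of the control culture. The 2 genes were chosen by the number and covered length of these peaks in the 2 libraries, so those values, and the heights and overlaps of the same peaks, are given as a description, without a test.

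The cells were primary chondrocytes of C57Bl/6 mice kept ex vivo as dense micromass cultures. The culture given a Cre-recombinase adenovirus is labelled hdac3-knockout, and the culture given a GFP control adenovirus is labelled wild-type. Both cultures thus carried an adenovirus. The labels give neither the Hdac3 allele that Cre acts on, nor the age of the animals, nor the share of cells that the virus reached, and the peak lists hold no measure of the deletion itself. The libraries are called Cre and GFP below. With 1 library for each culture there was no replicate, and every difference given here is a difference between 2 libraries.

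Hif1a encodes the oxygen-labile subunit of the transcription factor HIF-1. In the presence of oxygen, prolyl hydroxylases of the Egln family mark the protein for destruction through Vhl, a ubiquitin ligase subunit, and in hypoxia it pairs with Arnt and activates genes of glycolysis, glucose uptake and vessel growth. Cartilage lacks blood vessels, and Hif1a is known there for chondrocyte survival in the hypoxic growth plate. Prkch encodes protein kinase C eta, a diacylglycerol-activated kinase that does not need calcium. H3K27ac is the acetylation of lysine 27 on histone H3, a mark of active promoters and enhancers, and the enzyme HDAC3 removes acetyl groups from histones as part of corepressor complexes.

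Depth was similar in the 2 lists. The expected pileup, the number of fragments the caller expected at a peak, was most often 1.008 for Cre and 0.949 for GFP, and the median summit height was 12 fragments in both. Summit heights ran from 7 to 63 fragments in the Cre list and from 7 to 58 in the GFP list, so each peak rests on few fragments. Total read numbers were not used here. All 10 chondrocyte marker genes examined, among them Col2a1, Acan and Sox9, had peaks in both libraries. The 10 marker genes of endothelium, blood, muscle and fat had none in either, and of 4 osteoblast markers Sp7 alone had any.

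In these lists, the acetylated sites lay in the upper part of Prkch, the space between the genes and the lower part of Hif1a. All 106 peaks lay between 73708264 and 73935707, a stretch of 227.4 kb. The GFP peaks spanned 181.9 kb of it (73731916 to 73913822), and the Cre peaks reached past them on both sides. Neither list had a peak in the lowest 173.5 kb of the interval or in the top 61.8 kb. The stretch also stood alone on the chromosome. The nearest peaks above the interval lay 1310.8 kb (GFP, fold 6.16, 11 fragments) and 1311.5 kb (Cre, fold 5.48, 10 fragments) beyond its edge, inside Rhoj. Below it, the nearest GFP peak lay 72.7 kb from the edge inside the long non-coding RNA gene Gm34080 (fold 6.67, 12 fragments), and the nearest Cre peak 409.8 kb away inside Mnat1 (fold 5.98, 11 fragments). The first peaks inside the interval had fold 7.74 and 16 fragments (Cre) and fold 6.74 and 13 fragments (GFP), and the last ones fold 4.48 and 8 fragments (Cre) and fold 6.61 and 13 fragments (GFP). Folds are the authors' values at each peak's summit and rank peaks within their own list.

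**Figure D1:**
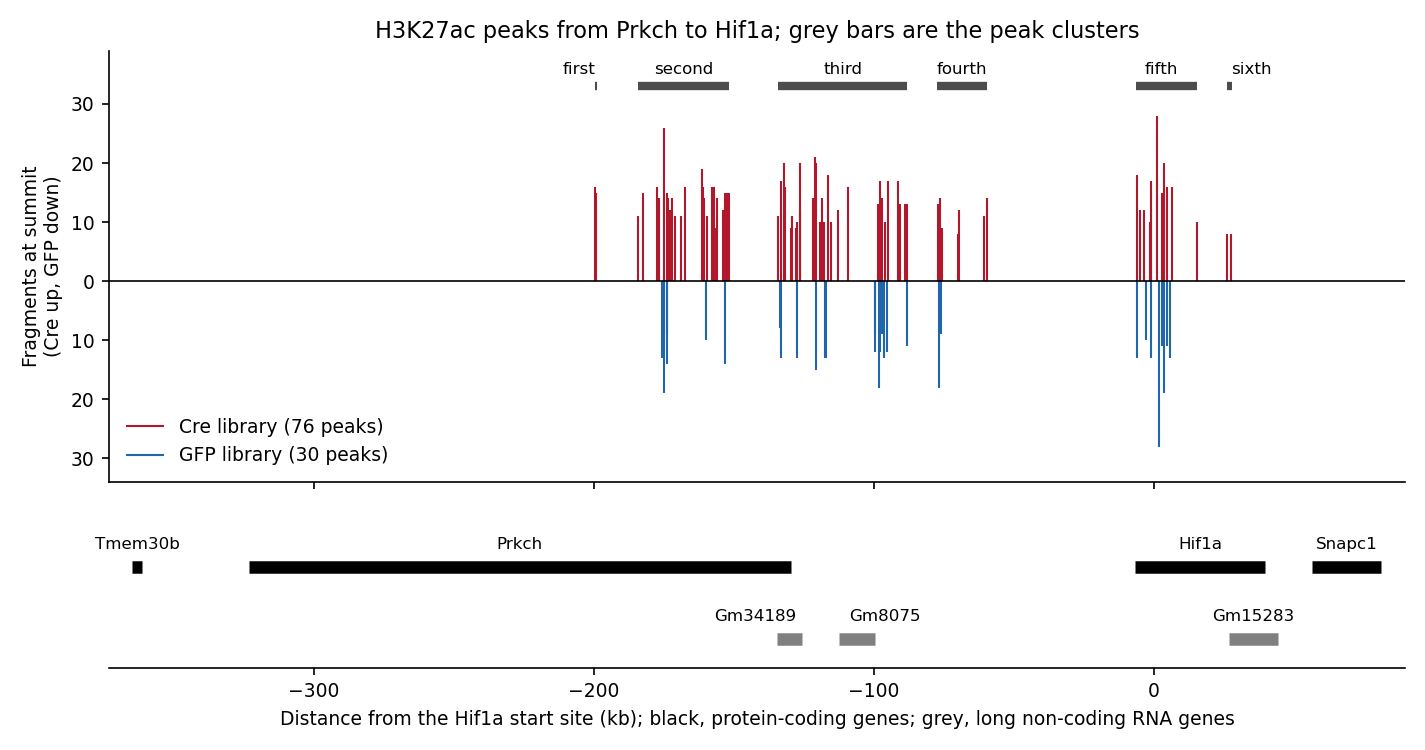
Map of the interval, with distance from the Hif1a start site on the x axis (kb) and fragments at each peak's summit on the y axis, Cre upward and GFP downward; grey bars mark the 6 peak clusters and the lower panel 7 of the 10 annotated genes. The 76 Cre peaks fill stretches between the 30 GFP peaks, and the lower part of Prkch is empty in both libraries.

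The Cre list held more of this stretch than the GFP list, in number, in length and in summed summit height. The Cre peaks covered 26950 bp and the GFP peaks 9634 bp, a Cre share of 73.7%. By number the Cre share was 71.7%. Summit heights summed to 1070 fragments for Cre and 395 for GFP (Cre share 73.0%). The mean height of a summit was closer, 14.1 against 13.2 fragments. Over the whole lists the Cre share was 50.5% by number and 50.2% by length, and on chromosome 12 without the interval it was 48.1% by either measure. The interval held 18.1% of the 421 Cre peaks of chromosome 12 and 7.46% of its 402 GFP peaks. The expected pileup at these peaks had a median of 1.09 for Cre and 0.967 for GFP and reached 3.90 and 2.79. It stood at the background value in 39.5% of the Cre peaks, against 56.8% of their list, and in 15 of the 30 GFP peaks, against 70.1%, so the caller's local expectation was raised more often here in both libraries.

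Joined across gaps of up to 10 kb, the peaks of both lists formed 6 clusters. The first (73708264 to 73708881) and the sixth (73934018 to 73935707) were small and held 2 Cre peaks each and no GFP peak. The other 4 held peaks of both libraries, as did 49.0% of the 7330 clusters formed in the same way over the genome. Among 469 clusters of at least 10 peaks, 11.7% had at least 2 times more covered length in the Cre library and 11.3% at least 2 times more in the GFP library. The second and the third cluster were of the first kind, and the fifth was of neither. The fourth, with 9 peaks, was under the size limit.

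**Figure D2:**
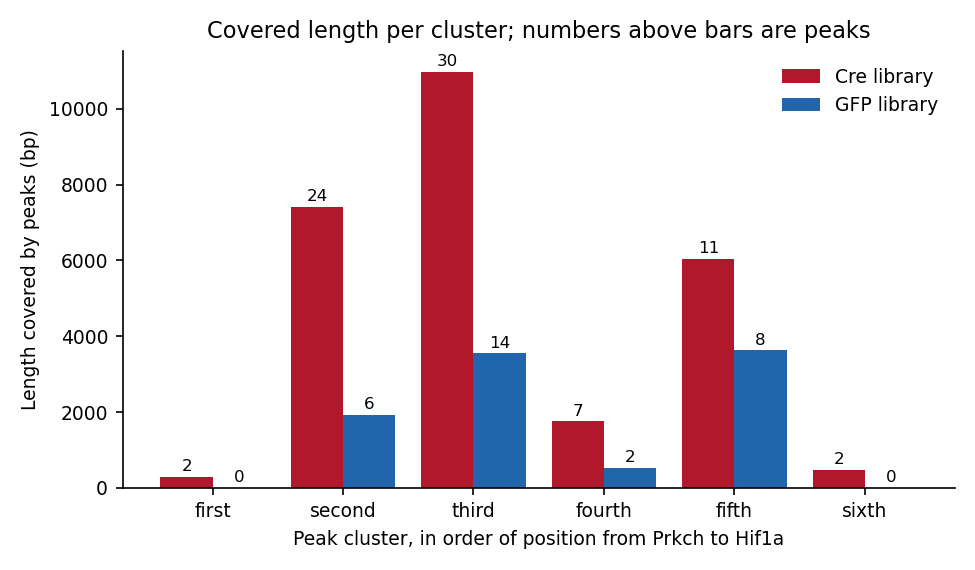
Length covered by peaks (bp, y axis) in each of the 6 clusters (x axis) in the Cre and GFP libraries, with the number of peaks above each bar. The Cre bar is higher in every cluster, with 10986 against 3550 bp in the third, and the fifth, at Hif1a, has the smallest ratio of the 4 clusters that hold peaks of both libraries.

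Prkch (73584796 to 73778185) had called peaks in its upper part only. The lowest 123.5 kb of the gene, 63.8% of its length, had no peak in either library, and this stretch includes the lower gene end, where the predicted gene LOC115488016 overlaps it. The remaining 69.9 kb held 30 Cre and 8 GFP peaks with summits inside the gene, covering 9160 and 2301 bp. Exon and strand positions for Prkch were not used here, so the peaks are placed by gene end and not by exon or intron. The first cluster lay 199.6 kb before the Hif1a start site and consisted of 2 Cre peaks of 147 bp with 16 and 15 fragments (folds 7.74 and 5.41). The nearest GFP peak was 23035 bp away.

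The second cluster (73723558 to 73756122, 32.6 kb) lay wholly inside Prkch, from 184.3 to 151.7 kb before the Hif1a start site. Its 24 Cre peaks covered 7412 bp and its 6 GFP peaks 1925 bp, a ratio of 3.85. The libraries met at its lower core. There the Cre peak at 73731809 to 73732968 (1160 bp, fold 10.5, 26 fragments) overlapped GFP peaks at 73731916 to 73732201 (fold 6.74, 13 fragments) and 73732275 to 73733030 (fold 10.3, 19 fragments). The summits of the Cre peak and of the higher GFP peak were 9 bp apart. These were the Cre peak of second highest fold and the GFP peak of highest fold in the interval, ranked 351 of 13130 and 528 of 12873 in their lists.

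Above that core, most peaks of the second cluster were in the Cre list. Between the GFP peaks that end at 73734322 and begin at 73748028, a stretch of 13.7 kb, the Cre list had 9 peaks covering 2499 bp, with summits of 11 to 19 fragments. The highest of them was at 73746383 to 73746557 (fold 9.29, 19 fragments), with no GFP peak within 1471 bp. The next GFP-free stretch of 6.4 kb, up to 73754581, held 6 Cre peaks with 9 to 16 fragments. The 1 GFP peak between these stretches (73748028 to 73748212, fold 5.64, 10 fragments) overlapped no Cre peak but lay 36 bp from its nearest. At the upper side of the cluster both libraries had a peak again, at 73754630 to 73755084 in the Cre list (fold 6.25, 15 fragments) and at 73754582 to 73754729 in the GFP list (fold 7.22, 14 fragments). Above it stood 2 more Cre peaks of 15 fragments each.

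The third cluster (73773563 to 73819910, 46.3 kb) bridged the upper end of Prkch and the space above it. Its 30 Cre peaks covered 10986 bp and its 14 GFP peaks 3550 bp, a ratio of 3.09. Its first 4 Cre peaks were inside Prkch, and the Cre list alone had peaks within 1 kb of the upper gene end (73778195 to 73778401, fold 4.98, 9 fragments, and 73778463 to 73778959, fold 5.98, 11 fragments). Here the long non-coding RNA gene Gm34189 (73773260 to 73782166) overlaps the end of Prkch on the minus strand. Its body held 10 Cre and 3 GFP peaks (3298 and 1004 bp). Within 1 kb of its start site at 73782166 there were 2 Cre peaks, at 73781086 to 73781527 (fold 10.5, 20 fragments) and 73781595 to 73781816 (fold 6.47, 12 fragments), and no GFP peak. The nearest GFP peak (73780444 to 73781071, fold 7.18, 13 fragments) ended 15 bp before the first of these 2 Cre peaks, so the 2 lists differ there in where peaks end as well as in their number.

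Further up in that cluster shared stretches alternated with stretches of Cre peaks alone and, less often, of GFP peaks alone. At 73787224 to 73787927 a Cre peak (fold 10.3, 20 fragments) overlapped the GFP peak at 73787295 to 73787528 (fold 8.21, 15 fragments). A narrow Cre peak 335 bp below that GFP peak (73786786 to 73786960, fold 9.70, 21 fragments) had no GFP overlap. Gm8075 (73795643 to 73808411), a second long non-coding RNA gene, had 1 Cre peak within 1 kb of its start site (73794667 to 73795017, fold 6.47, 12 fragments), 3511 bp from the nearest GFP peak. From 73808138 to 73812856 the GFP list had 7 peaks. Those that begin at 73808138, 73808401, 73810219 and 73810657 overlapped no Cre peak. The highest of the 7 (73809442 to 73810051, fold 9.51, 18 fragments) overlapped Cre peaks of 13 and 17 fragments, so the control library was not lower here. The only Cre-free stretch of more than 2 kb with a GFP peak in it was just below, from 73799219 to 73809259, with 2 GFP peaks of 9 and 12 fragments.

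The fourth cluster (73830661 to 73848411) lay in intergenic sequence, 77.2 to 59.5 kb before the Hif1a start site, and held 7 Cre and 2 GFP peaks (1752 and 531 bp). Its highest peak was in the GFP list (73831108 to 73831493, fold 9.75, 18 fragments) and overlapped a wider Cre peak (73831057 to 73831676, fold 7.47, 14 fragments). The 4 Cre peaks farther along this cluster had 8, 12, 11 and 14 fragments and no GFP peak within 5825 bp. Between the fourth and the fifth cluster, 53.2 kb had no peak in either library.

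The fifth cluster (73901622 to 73923379, 21.8 kb) surrounded the Hif1a start site at 73907867 and had the most even covered lengths of the clusters that hold both libraries. Its 11 Cre peaks covered 6039 bp and its 8 GFP peaks 3628 bp, a ratio of 1.66. Of the Cre length, 43.9% was also covered by GFP peaks. In the second cluster this was so for 1484 of 7412 bp, in the third for 2039 of 10986 bp and in the fourth for 386 of 1752 bp. The largest peak of both libraries began past the start site. In the Cre library it ran from 882 to 2450 bp after it (1569 bp, fold 12.9, 28 fragments), and in the GFP library from 923 to 2653 bp (1731 bp, fold 10.1, 28 fragments). In both libraries it was the widest peak of the interval and, by fragments, the highest. The summit counts were equal, and the expected pileup was 1.24 for Cre and 1.86 for GFP; the fold is taken after adding 1 to both observed and expected pileup.

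The start site itself lay in a peak-free gap in both libraries. The gap measured 1476 bp for Cre and 1374 bp for GFP, and a peak stood on each side. On the upstream side the Cre peak (327 bp, fold 7.56, 17 fragments) ended 595 bp before the start site and the GFP peak (694 bp, fold 7.18, 13 fragments) 452 bp before it. On the downstream side, past the large peak, the Cre library had summits of 15, 20, 16 and 16 fragments within 7 kb and the GFP library 11, 19, 11 and 13. The lower end of the annotated gene (73901324) also had a peak in both libraries, with 18 Cre and 13 GFP fragments. Hif1a is on the plus strand, so this end lies upstream of the start site used here. Beyond 7 kb Hif1a had Cre peaks only, at 73923122 (fold 5.48, 10 fragments) and the 2 of the sixth cluster, with 8 fragments each. The last of these was inside both Hif1a and the long non-coding RNA gene Gm15283.

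**Figure D3:**
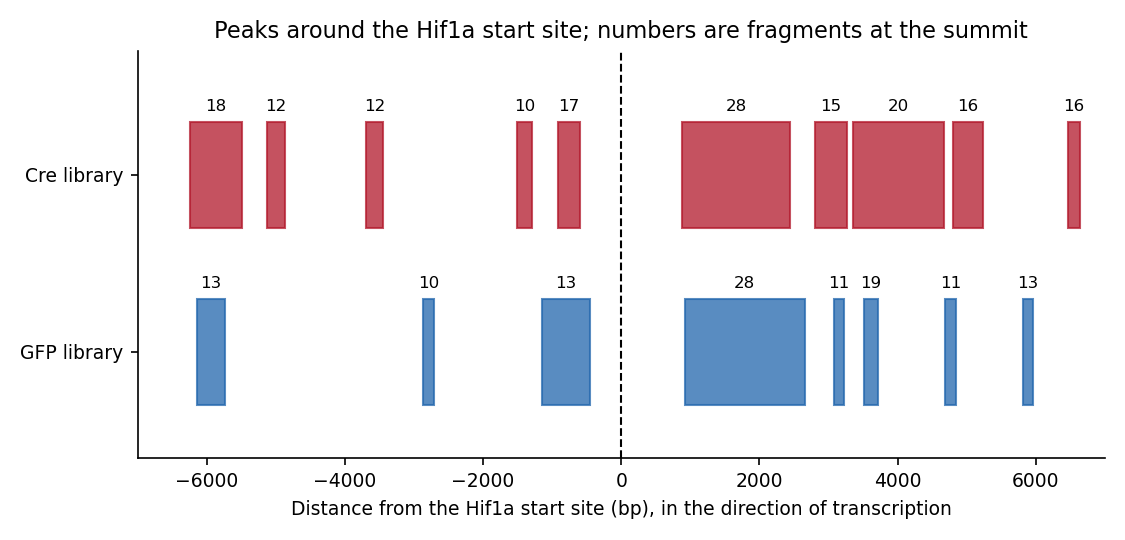
Peaks within 7 kb of the Hif1a start site (dashed line), with distance in the direction of transcription on the x axis (bp) and 1 row of boxes for each library; numbers are fragments at each summit. Both libraries leave the start site free and share the large peak of 28 fragments after it, while the Cre library has 10 peaks in the window and the GFP library 8.

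The 250 bases before the start site are shown for 4 genes of the interval because of where they lie. They lie in the acetylation gap of Hif1a, and beside peaks found in the Cre list alone for Gm34189 and Gm8075. For Snapc1, which encodes a subunit of a complex that activates small nuclear RNA gene transcription, they lie in a stretch without any peak. The sequences are those of RefSeq on GRCm38.p6, read 5′ to 3′ on each gene's strand, and the capitals mark the core of the hypoxia response element, ACGTG or GCGTG, on either strand. Hif1a is at chr12:73907617-73907866 (plus strand), Gm34189 at chr12:73782167-73782416 (minus strand), Gm8075 at chr12:73795393-73795642 (plus strand) and Snapc1 at chr12:73964247-73964496 (plus strand).
Hif1a: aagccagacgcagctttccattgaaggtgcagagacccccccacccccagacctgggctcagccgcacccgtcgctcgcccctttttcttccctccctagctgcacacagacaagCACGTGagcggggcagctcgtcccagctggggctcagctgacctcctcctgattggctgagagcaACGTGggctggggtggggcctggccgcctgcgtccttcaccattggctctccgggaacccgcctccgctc
Gm34189: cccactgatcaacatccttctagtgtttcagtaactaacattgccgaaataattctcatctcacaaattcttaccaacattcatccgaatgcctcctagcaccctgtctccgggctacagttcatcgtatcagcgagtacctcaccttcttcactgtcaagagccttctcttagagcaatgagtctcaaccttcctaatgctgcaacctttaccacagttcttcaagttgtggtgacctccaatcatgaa
Gm8075: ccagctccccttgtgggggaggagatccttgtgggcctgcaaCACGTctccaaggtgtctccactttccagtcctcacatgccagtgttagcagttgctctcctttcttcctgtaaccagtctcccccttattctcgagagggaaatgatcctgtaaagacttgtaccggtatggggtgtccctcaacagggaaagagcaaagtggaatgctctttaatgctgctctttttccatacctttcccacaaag
Snapc1: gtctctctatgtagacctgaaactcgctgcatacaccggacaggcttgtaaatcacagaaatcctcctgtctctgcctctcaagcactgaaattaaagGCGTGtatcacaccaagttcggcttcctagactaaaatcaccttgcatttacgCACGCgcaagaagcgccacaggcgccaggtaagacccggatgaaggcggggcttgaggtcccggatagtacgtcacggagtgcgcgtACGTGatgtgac

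The Hif1a window held 14 CG pairs and was 66.4% G and C, against 5 CG pairs for Gm34189, 3 for Gm8075 and 17 for Snapc1. The median over all 32851 such windows was 6, and 29.4% had at least as many as Hif1a. The Snapc1 and Tmem30b windows, at start sites without a peak nearby, had 17 and 24 CG pairs, more than Hif1a, Gm34189 or Gm8075. Other start sites of the interval without a peak are not given here. The Hif1a window held the hypoxia core at 2 places, once as CACGTG, which reads as the core on both strands (135 to 130 bases before the start site), and once as ACGTG (70 to 66 bases before it). Snapc1 had it at 3 places, Gm8075 and Tmem30b at 1 each and Gm34189 at none. Of all windows, 38.6% held at least 1 match and 13.5% held it at 2 or more places. The AP-1 motif TGANTCA was in none of these 5 windows (6.75% of all windows), the Runx motif ACCACA was at 2 places in Gm34189 and 1 in Tmem30b (4614 of all windows), and the Sox motifs ACAATG and ACAAAG gave 1 match, in Gm8075 (25.2% of all), each searched on both strands. A match is a run of letters and not a measured binding site.

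The other protein-coding genes of the interval had no peak. Tmem30b, which encodes a subunit of lipid flippases, the long non-coding RNA gene 2210039B01Rik and LOC115488016, all below or at the lower end of Prkch, had no peak in either list, nor did S100a11-ps and Snapc1 above Hif1a. The Snapc1 start site was 28790 bp from the nearest Cre peak and 50675 bp from the nearest GFP peak. Of the 10 annotated genes in the interval, Prkch, Gm34189, Gm8075 and Hif1a had peaks in both libraries within their bodies, and Gm15283 in the Cre library alone.

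Most GFP peaks of the interval were found again in the Cre list, but most Cre peaks were not found in the GFP list. Of the 30 GFP peaks, 22 (73.3%, exact Clopper-Pearson 95% interval 54.1 to 87.7) overlapped a Cre peak by at least 1 bp, where 41.4% of the whole GFP list did. All 30 had a Cre peak within 1 kb, against 67.4% of the whole list. Of the 76 Cre peaks, 21 (27.6%, 18.0 to 39.1) overlapped a GFP peak, against 40.7% of the whole Cre list, and 44 (57.9%) had a GFP peak within 1 kb, against 64.8%. Neighbouring peaks are not independent, so these intervals understate the error. The interval was chosen for its peak numbers. Having fewer GFP than Cre peaks by itself lowers the share of Cre peaks that overlap and raises that of GFP peaks. This holds for the height classes below as well. The 8 GFP peaks without an overlap had 9 to 13 fragments and lay 36 to 957 bp from a Cre peak.

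Cre peaks without a GFP partner were not only low ones. In the interval 32 Cre peaks had 15 or more fragments at the summit, which is 42.1% of them against 23.3% of the whole Cre list, and 6 of the 30 GFP peaks did, against 21.6% of theirs. Of these 32 Cre peaks, 14 (43.8%) overlapped a GFP peak, against 70.6% of Cre peaks of that height in the whole list. By height class, overlap was 18.9% (7.96 to 35.2) of 37 Cre peaks with 10 to 14 fragments, against 34.6% in the rest of the list, and 40.0% (21.1 to 61.3) of 25 peaks with 15 to 19 fragments, against 65.1%. Of 7 peaks with 20 to 29 fragments, 4 overlapped, against 86.4% in the rest of the list, and all 7 had a GFP peak within 1 kb. Of the 25 peaks with 15 to 19 fragments, 12 had a GFP peak within 1 kb (48.0%, against 82.5% in the rest of the list). Of the other 13, 11 were inside Prkch and 2 between the genes.

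**Figure D4:**
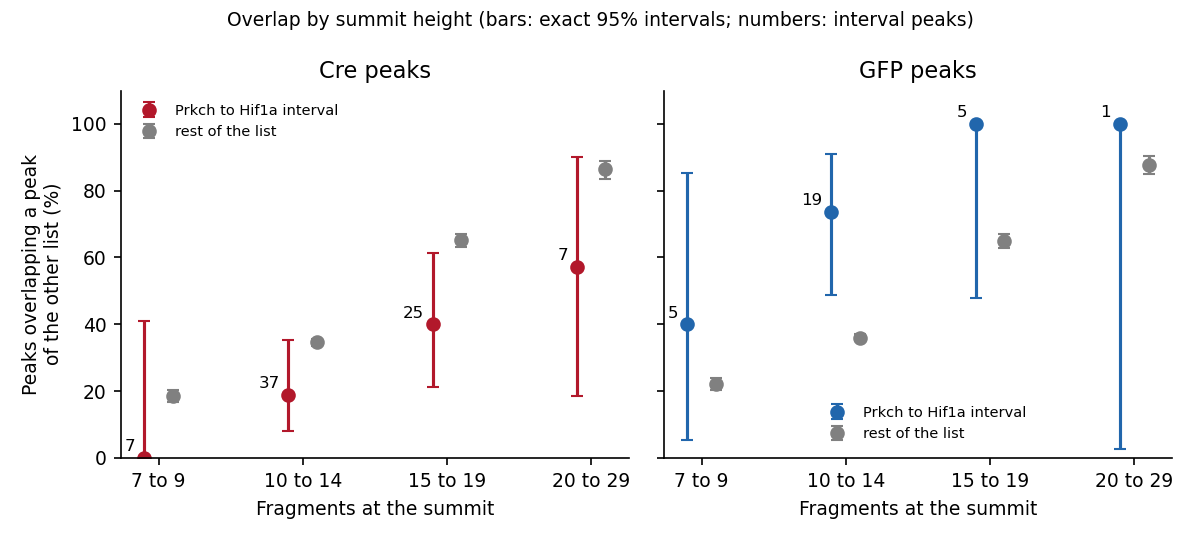
Share of peaks that overlap a peak of the other list (y axis, %) by fragments at the summit (x axis), for Cre peaks (left) and GFP peaks (right), in the interval (coloured, with the number of peaks) and in the rest of each list (grey); bars are exact 95% intervals for counting error. Cre peaks of the interval lie below the rest of their list in all 4 height classes, and GFP peaks above theirs, with wide intervals where an interval class holds 7 peaks or fewer.

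Where both libraries had a peak, the Cre summit was more often the higher one, by amounts within counting error at each site. The 21 Cre and 22 GFP peaks that overlapped made 24 pairs, and a peak that overlapped 2 peaks of the other list counts in 2 pairs. The Cre peaks counted so (at 73731809, 73733729 and 73774127) were higher and wider in each of their pairs. Of the GFP peaks counted so, that at 73809442 was higher and wider in both, and that at 73811546 in 1. The Cre summit was higher in 17 pairs, the GFP summit in 6, and 1 pair was equal; in the rest of the genome the Cre summit was higher in 46.6% of 5755 pairs. The median log2 ratio of Cre to GFP summit fragments was 0.31 in the interval (quartiles -0.02 and 0.47) and 0.00 in the rest of the genome (-0.26 and 0.30). For each of the 24 pairs the exact 95% interval of the Cre share of the 2 summit counts contained 50%. The pairs farthest apart were 17 against 8 fragments inside the upper end of Prkch (Cre share 68.0%, 46.5 to 85.1) and 26 against 13 at the core of the second cluster (66.7%, 49.8 to 80.9). Their summits lay 315 and 690 bp apart. Each of these Cre peaks also overlapped a GFP peak with a nearer summit, 67 and 9 bp away. There the counts were 17 against 13 (56.7%) and 26 against 19 (57.8%). The paired peaks differed more in width, with a median of 579 bp for Cre and 257.5 bp for GFP, against 253 and 259 bp in the rest of the genome.

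Measured over the gene with 10 kb on each side, Prkch had one of the longest covers of the Cre library and ranked lower in the GFP library. Its 40 Cre peaks covered 12335 bp and its 10 GFP peaks 3163 bp (ratio 3.90), rank 8 and rank 151 of 21887 protein-coding genes. Covered length is not divided by gene length here, and Prkch spans 193390 bp. For Hif1a, 13 Cre peaks covered 6506 bp and 8 GFP peaks 3628 bp (ratio 1.79), rank 37 and 115. A Cre covered length at least 2 times the GFP one, which Prkch had and Hif1a had not, was seen in 28.6% of the 7081 genes with a peak, and the reverse in 29.1%. Prkch had a peak within 1 kb of a gene end in the Cre list alone, as did 4.28% of all genes, and Hif1a in both lists, as did 9.26%. For Prkch this was the upper end, with no peak at the lower one in either list, and for Hif1a the lower end.

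The genes most like Prkch were found by distance on the log2(bp + 1) scale of the 2 covered lengths, which compares 2 libraries and no more. The closest was Vmp1, a vacuole membrane protein gene of autophagy (10880 Cre and 3258 GFP bp, distance 0.19). Ppm1h (8392 and 2871 bp, 0.57), Babam2 (8217 and 3247 bp, 0.59), Stk38l (7786 and 4898 bp, 0.92) and Hif1a itself (0.94) followed. The closest to Hif1a were Zfp385b (6362 and 3739 bp, 0.05), Iqsec1 (6149 and 2930 bp, 0.32), the glycolytic enzyme gene Pkm (5077 and 3559 bp, 0.36), Babam2 (0.37) and Ddr2, a collagen receptor gene (4794 and 3877 bp, 0.45).

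The other protein kinase C genes had 1 to 4 peaks each where they had any. Of 14 genes of this and the related protein kinase D and N families, 8 had a peak, against 32.4% of all protein-coding genes, and their 5 Cre peaks covered 1488 bp and their 11 GFP peaks 2211 bp. Covered length was at least 2 times higher in the Cre library for 2 of the 8 (Prkca and Prkd1), against 28.6% of all genes with a peak, and in the GFP library for 4 (Prkcz, Prkce, Prkd2 and Pkn3), against 29.1%. Each of these rests on 0 to 4 peaks in a library. Prkci, the atypical kinase iota, had a peak at a gene end in both lists with 20 and 18 fragments, and Prkce, Prkd2 and Prkd3 in the GFP list alone, as 4.77% of all genes did.

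Genes that control HIF-1 had 14 Cre peaks covering 2799 bp and 7 GFP peaks covering 1322 bp. Of 16 such genes 10 had a peak, against 32.4% of all genes. The Cre length was at least 2 times higher for 7 of the 10, against 28.6% of all genes with a peak, and the GFP length for 2, against 29.1%; most of these rest on 1 or 2 peaks. The prolyl hydroxylase genes Egln1 (169 Cre and 0 GFP bp, fold 6.25, 15 fragments) and Egln2 (669 and 0 bp, fold 5.46, 12 fragments) had peaks at a gene end in the Cre list alone. Egln3 had 209 and 194 bp, within its gene neighbourhood and not at an end. Arnt, the partner of Hif1a, had 297 and 144 bp, with a gene-end peak in the GFP list alone (fold 4.94, 9 fragments). Cul2 and Rbx1, subunits of the Vhl ubiquitin ligase, and the coactivator gene Ep300 had gene-end peaks in both lists, at Cul2 with 26 and 19 fragments. The GFP length was the higher one for the coactivator gene Crebbp (0 Cre and 331 GFP bp) and for Eloc, of the same ligase (0 and 206 bp). Vhl, Epas1, which encodes HIF-2 alpha, and Hif1an, the asparagine hydroxylase, had none in either list.

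Known target genes of HIF-1 also held more covered length in the Cre library. Of 36 such genes 32 had a peak, against 32.4% of all genes. Their 153 Cre peaks covered 40475 bp and their 108 GFP peaks 27141 bp. Covered length was at least 2 times higher in the Cre library for 15 of the 32 (46.9%, against 28.6% of all genes with a peak) and in the GFP library for 3 (9.38%, against 29.1%). The median Cre share was 63.6%, against 49.5% over all genes with a peak. Slc2a1, the glucose transporter gene of GLUT1, had 1613 bp in 8 Cre peaks and 301 bp in 1 GFP peak, with a gene-end peak of 12 fragments in the Cre list alone. Slc16a3, the lactate exporter, had 5 Cre peaks over 1215 bp and no GFP peak. Bnip3, a mitophagy gene, had 2279 and 758 bp, and Gapdh 1286 and 380 bp, with gene-end summits of 22 and 13 fragments. Vegfa, the vessel growth factor, Hk2, a hexokinase, Adm, P4ha2, a collagen prolyl hydroxylase, Bnip3l and Ankrd37 had gene-end peaks in the Cre list alone, with 10 to 18 fragments. Gene-end peaks in both lists were found for 12 targets (against 9.26% of all genes), in the Cre list alone for 7 (4.28%) and in the GFP list alone for 1 (4.77%). Besides Gapdh and Bnip3, the 12 include the glycolysis genes Eno1, with summits of 26 Cre and 17 GFP fragments, Tpi1 (17 and 14), Pgam1 (15 and 11), Pfkl (12 and 10), Aldoa (11 and 13) and Pgk1 (11 and 10). Pdk1 (16 and 11), Ddit4 (15 and 10), P4ha1 (15 and 10) and Bhlhe40 (11 and 10) complete them. The genes whose GFP length was at least 2 times higher were Slc2a3, Pfkfb4 and Pgk1, with 0 and 597, 0 and 509, and 169 and 389 bp in the Cre and GFP library. Plod2, the collagen lysyl hydroxylase with the longest cover of the list, was near even with 7295 and 8312 bp, and P4ha1 had 1473 and 1991 bp. The lists of HIF and protein kinase C genes were drawn up with earlier results of these libraries known, and their counts are a description.

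**Figure D5:**
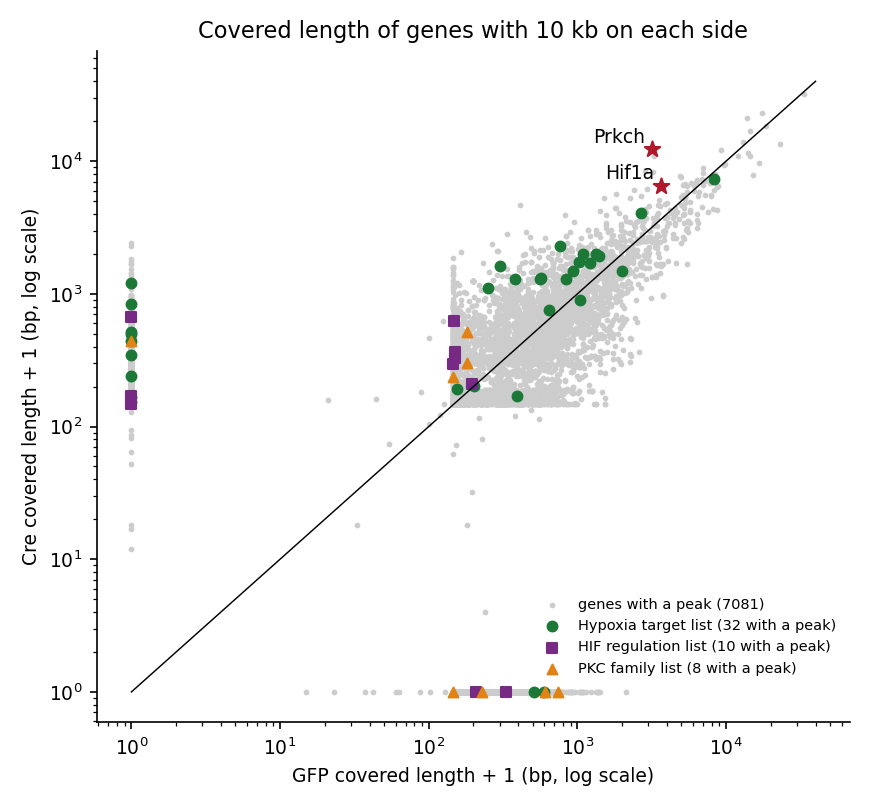
Covered length of genes with 10 kb on each side in the GFP (x axis) and Cre (y axis) libraries, both as bp + 1 on log scales, for all 7081 protein-coding genes with a peak (grey), the 3 gene lists (coloured) and Prkch and Hif1a (stars); the line marks equal length. Prkch and Hif1a lie above the line near the upper end, most hypoxia targets lie above it, and the protein kinase C genes lie on both sides.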

How the data were processed

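Chromatin bound by an H3K27ac antibody was sequenced in 1 Cre and 1 GFP library; 2 input libraries were not analysed here. Per the submitters' processing notes, bcl2fastq 1.8.4, BWA, Picard, SICER and mm10 were used; the deposited lists have the name and column order of MACS2 output, with version, settings and control not given in the sources used here. The deposited score equals 10 times the −log10 q-value, truncated to a whole number. The deposited fold is a ratio of observed to expected pileup at the summit, with 1 added to both. Each summit also has a deposited −log10 p-value and a −log10 of the adjusted q-value.

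Fold and p-value were solved together for whole summit fragments (within 0.001 in 100% of peaks) and expected pileup, checked on simulated data. Genes and start sites came from RefSeq tables of GRCm38.p6 (mm10 coordinates), and gene-end peaks lay within 1 kb of an annotated end. Peaks were joined within 10 kb. Shares carry exact 95% Clopper-Pearson intervals. Python 3.11.15, pandas 2.3.3 and SciPy 1.17.1 were used.

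The genes, lists and rules were chosen with earlier results of these data known. Named were the 2 genes, all genes of the interval, the 5 nearest genes by covered length for each, and list members with a gene-end peak; list members named for covered length alone, and the peaks described singly, were chosen after their values were seen. No test across libraries was possible with 1 library per group. Alternatives changed the −log10 q-value limit, overlap, flanks, joining distance and summit height.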

Additional observations from a re-analysis of the deposited data

How the results depend on the processing

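Of 43 recomputed values 30 stayed close to the main one, and none of the Cre shares turned direction. Narrower flanks left the interval values the same, because the flanks held no peak. The Hif1a values with the gene body alone or with 50 kb on each side were also the same as the main one. These unchanged values are counted among the 30, although they could not change, as no peak lay in the stretches added or removed. The Cre share of covered length in the interval ranged from 69.6% to 79.5%, that of Prkch from 75.5% to 88.2% and that of Hif1a from 57.3% to 72.4%. The Cre share of peak number rose to 84.2% with summits of at least 15 fragments, a limit chosen after seeing the data. Counts of overlapping peaks followed the definition, and stricter limits on both lists also left fewer peaks to overlap. The 21 of 76 Cre and 22 of 30 GFP peaks became 3 of 13 and 3 of 4 with 10 or more as −log10 q-value. Among the top 5000 peaks they were 10 of 36 and 11 of 15, and with at least 15 fragments 5 of 32 and 5 of 6. With an overlap of at least 50% of both peaks they were 5 of 76 and 5 of 30. A peak of the other list lay within 1 kb for 44 of 76 Cre and 30 of 30 GFP peaks. Joining peaks within 5 kb gave 11 clusters, 6 of them with peaks of both libraries, and joining within 20 kb gave 2, each with peaks of both. No paired analysis was possible because each group had 1 library. Depth limits single sites: no pair of overlapping summits differed beyond counting error, and regions slightly below the calling threshold are not in the lists.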
